A study of Homo sapiens with 4 samples.

Results

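The 47 genes described here encode the proteasome, its assembly chaperones, its activators and its inhibitor. They are the symbols that start with PSM, continue with a letter from A to G and a number, and were above 0 in at least 2 of the 4 libraries. PSMC3IP, a partner of PSMC3 and not a subunit, was left out. Of 25066 genes in the table, 48 symbols matched and 47 passed the limit on values, while 16945 genes of all kinds passed it and were tested. The members were sorted by role into 8 genes of the α ring, 7 of the constitutive β ring, 3 immunoproteasome subunits, 6 ATPases and 11 other subunits of the regulatory particle, 7 assembly chaperones, and 4 activators with 1 inhibitor.

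The proteasome is the protease that degrades proteins tagged with ubiquitin. Its barrel-shaped core particle stacks outer α rings on inner β rings, and the β subunits PSMB5, PSMB6 and PSMB7 carry the cutting sites. A regulatory particle caps the barrel, binds ubiquitin chains, removes them and unfolds the substrate with a ring of ATPases. In lymphoid cells and after interferon exposure the cutting subunits are replaced by PSMB8, PSMB9 and PSMB10, giving the immunoproteasome, which is known for making peptides that are loaded on MHC class I.

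RNA sequencing was done in NUDUL1, a human germinal center type diffuse large B cell lymphoma line. The cells were a single-cell clone with doxycycline-inducible Cas9, transduced with Tbxa2r, a thromboxane receptor that couples to Gα13, the G protein subunit encoded by GNA13. They carried either a control guide RNA or 1 guide RNA against GNA13, and each genotype had 2 libraries. All 4 cultures received U46619, a stable mimetic of the receptor's ligand, at 10 nM for 24 h, so the comparison asks how the genotypes differed under the agonist and no untreated cells entered it. The labels say that cells were treated in duplicate and not whether the duplicates were independent cultures, so p values measure the spread between these samples, which may be technical.

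Library totals ranged from 29209544 to 31537955 mapped reads. GNA13 mRNA, the targeted transcript, stood at log2 values of 12.46 and 12.45 in the control libraries and at 13.10 and 13.11 in the libraries labelled GNA13-deficient, and so differed by 0.65 ± 0.05 (SE, n = 2 per group, limma adjusted p = 0.00214). The targeted mRNA was therefore not lower where the labels call the cells deficient. The level of an mRNA does not measure its protein, so these values cannot test whether Gα13 was lost. The direction of each difference, and the name GNA13-deficient libraries used from here, rest on the labels. All 8 B cell markers listed were detected, at log2 values from 8.23 upward. Of 4 T cell markers CD3D and CD3E were at 0 in all libraries and the list summed to between 0 and 5 reads a library, and 3 fibroblast markers summed to 8 and 4 reads in the control and 17 and 8 in the other libraries. The 4 myeloid markers summed to 224 and 246 reads in the control and 27 and 25 in the GNA13-deficient libraries, and the part of this shift in the results below was not tested.

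Proteasome mRNAs were mostly higher in the libraries labelled GNA13-deficient. Of the 47 members, 19 rose, 1 fell (PSMD5) and 27 did not pass the test, a model fitted to all genes with an adjusted p under 0.05 (limma). The 19 that rose are 40.4% of the members, beside 13.1% of all genes tested, and the 1 that fell is 2.13% of them, beside 16.6%. All genes tested include genes with few reads, which the members other than PSMA8 are not. With a limit at the median of the mean values, 22 of 46 members were called higher and 3 lower. Of the 8473 genes then tested, 26.3% were called higher and 1854 genes lower. Leaving out PSMA8, which had at most 1 read in any library, the median difference was 0.19 on the log2 scale and 38 of 46 differences were above 0, whereas the median over all genes was -0.02. In 30 of these 46 the libraries labelled GNA13-deficient both exceeded both control libraries, which held for 31.3% of all genes, and in 4 (PSMB8, PSMB9, PSMB10 and PSMD5) they lay below, which held for 34.0% of all genes. The count of calls depended on the settings. With no limit on low values 4 of 47 members passed, beside 1999 of 25066 genes. Without the variance trend 2 members passed, beside 2718 of 16945 genes. The members' share of calls in either direction was thus near that of all genes in the first fit and below it in the second. Called higher were 3 of 47 members in the first fit, beside 3.25% of all genes. In the second they were 2 of 47, beside 5.82%. With any 1 library left out 1 degree of freedom remained and limma called 0 of the 16945 genes, which says nothing about single members. All 20 called members then kept their direction, which was fixed in advance, since the 2 groups of each did not overlap.

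**Figure D1:**
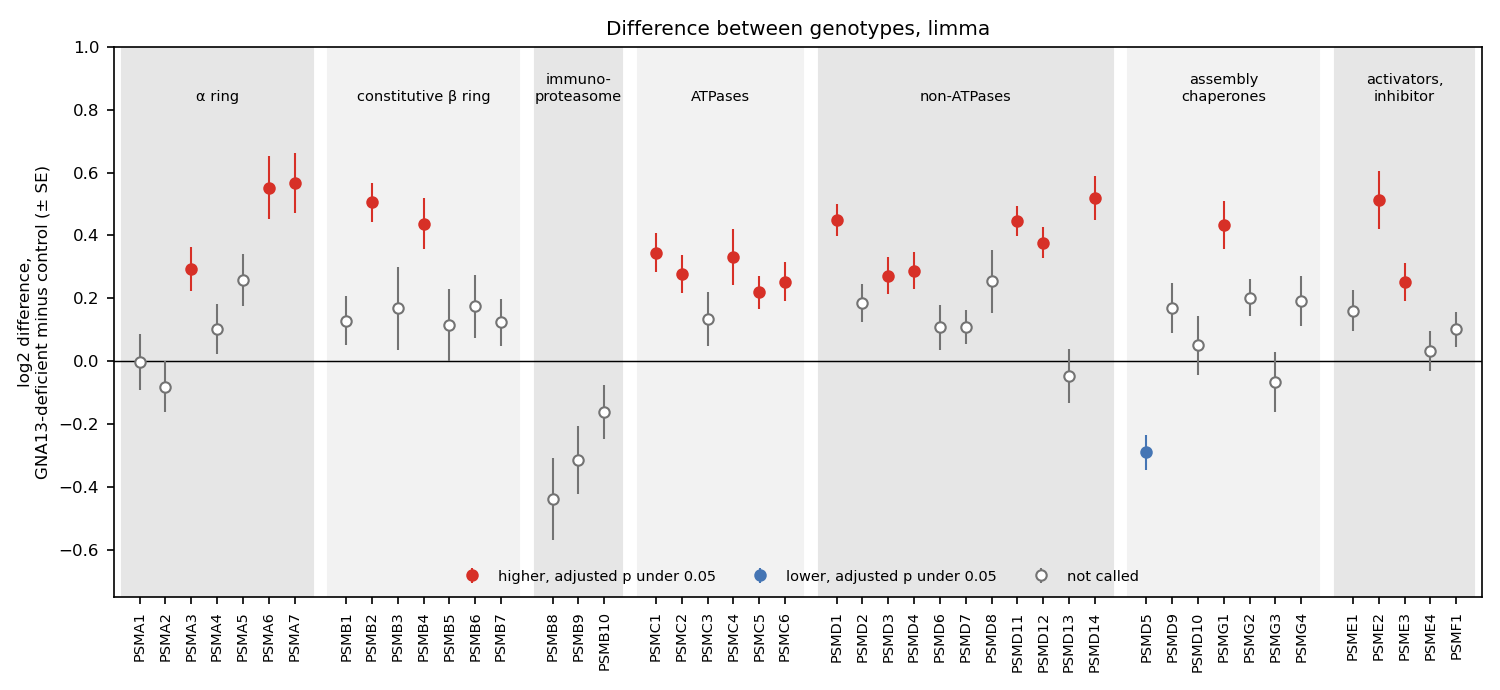
Difference between the libraries labelled GNA13-deficient and the control libraries for 46 proteasome genes (y axis, log2 units, bars are SE), grouped by role along the x axis and without PSMA8. Filled points passed the test (red higher, blue lower), most points lie above 0, up to 0.57 for PSMA7, and PSMB8, PSMB9, PSMB10 and PSMD5 lie below it by 0.16 or more.

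PSMA8, the testis-specific α subunit, was the member just inside the limit, listed at 0 in both control libraries, where a 0 in control replicate 2 can stand for 1 read, and with 1 read in each of the others. It passed the limit only through the libraries where it was above 0, and no fold is given. PSMB11, the thymus-specific β subunit, was at 0 in all 4 libraries and fell just outside. Every other member was measured on at least 428 reads a library, the lowest being PSMG4 in control replicate 1.

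The α ring forms the gate of the barrel. Of its 8 genes 3 rose (37.5%), beside 13.1% of all genes tested, and none fell. PSMA7 had log2 values of 12.98 and 13.13 in the control and of 13.52 and 13.72 in the GNA13-deficient libraries. PSMA6 had 13.38 and 13.56 against 13.92 and 14.12, and PSMA3 had 11.93 and 12.03 against 12.21 and 12.34. In each of these genes the groups did not overlap. PSMA7 was 1.48-fold higher (difference 0.57 ± 0.10, SE, limma adjusted p = 0.0145) and PSMA6 1.47-fold higher (0.55 ± 0.10, adjusted p = 0.0170), whereas PSMA3 differed by 0.29 ± 0.07 (adjusted p = 0.0352). The differences were unequal within the ring, and PSMA2 differed by -0.08 ± 0.08 (adjusted p = 0.498) with overlapping groups. PSMA6 has 4 named pseudogenes in the annotation, so its count is uncertain.

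In the constitutive β ring 2 of 7 genes rose (28.6%), beside 13.1% of all genes tested. With the limit at the median of the mean values 26.3% of the genes then tested were called higher. PSMB2 had log2 values of 11.93 and 12.05 in the control and 12.50 and 12.49 in the other libraries, a difference of 0.51 ± 0.06 (SE, limma adjusted p = 0.00603). PSMB4 had 13.25 and 13.37 against 13.68 and 13.82, a difference of 0.44 ± 0.08 (adjusted p = 0.0177). Neither carries a cutting site. The 3 subunits that do were not called. PSMB5, the chymotrypsin-like subunit, had 11.85 and 12.11 against 12.00 and 12.19, and PSMB6, the caspase-like subunit, had 11.59 and 11.81 against 11.79 and 11.96. PSMB7, the trypsin-like subunit, had 12.04 and 12.18 against 12.18 and 12.29. The groups overlapped for all 3 genes, and the adjusted p values were 0.505, 0.26 and 0.289.

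**Figure D2:**
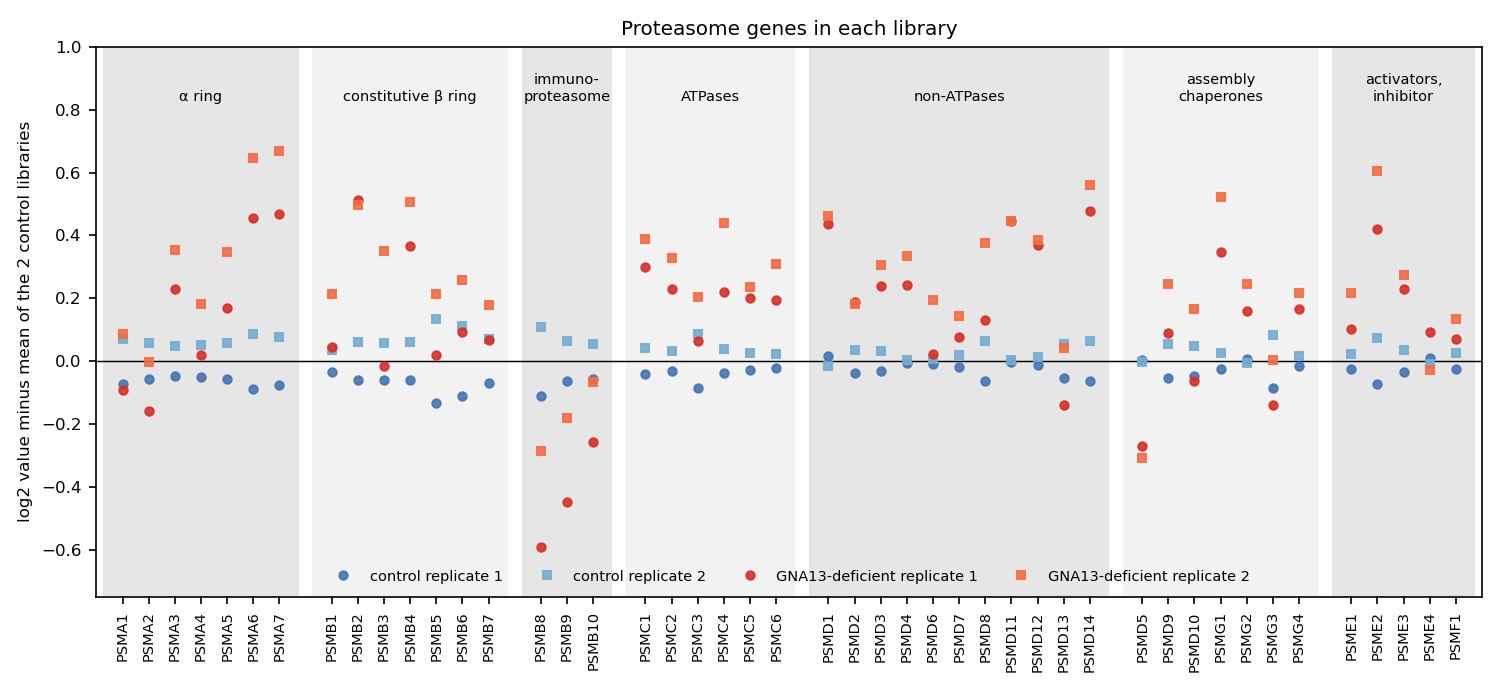
Log2 value of 46 proteasome genes (x axis, grouped by role, without PSMA8) in each of the 4 libraries, as the distance from the mean of the 2 control libraries (y axis, log2 units), with blue control and red or orange GNA13-deficient points. Each point is 1 library, and in 30 of the genes both GNA13-deficient points lie above both control points.

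Per kilobase of the annotated canonical transcript, levels of the 14 expressed core particle genes spread widely although their proteins share one barrel. In every library PSMB2 was the lowest, at 880 and 958 normalized reads per kilobase in the control and 1311 and 1295 in the other libraries. PSMB4 was the highest in control replicate 1, at 10620, and PSMA6 in the remaining libraries, at 11760, 15180 and 17340. The highest level was 12.1 and 12.3 times the lowest in the control and 11.6 and 13.4 times in the GNA13-deficient libraries, so the range was of like size in all 4. The length used for PSMB2 was 4.43 kb and that for PSMA6 1.02 kb, and the length of the transcript these cells use was not measured.

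**Figure D3:**
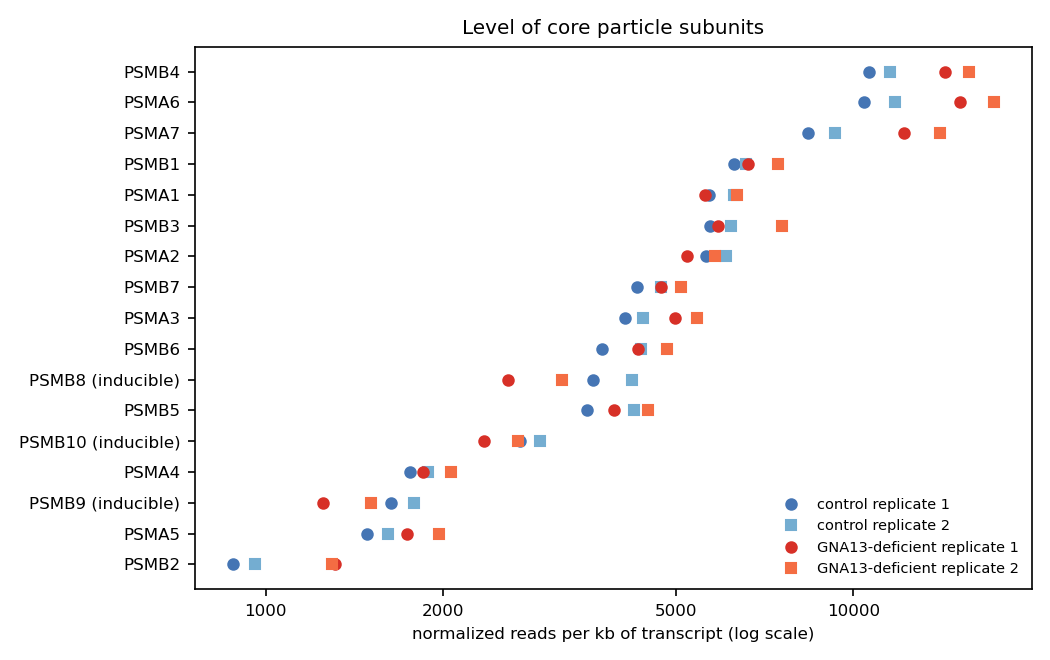
Level of the 14 expressed constitutive core particle genes and the 3 immunoproteasome genes in each library (x axis, normalized reads per kilobase of canonical transcript, log scale), 1 point per library and 1 gene per line. PSMB2 is lowest in all 4 libraries and PSMA6 or PSMB4 highest.

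The 3 immunoproteasome subunits were lower where most members were higher, without passing the test. After centring on the library median, which shifts all genes by about the same amount, PSMB10 differed by 0.05. It lay below the median of all genes (0.18), an order that centring cannot change. PSMB8, which takes the place of PSMB5, had log2 values of 11.99 and 12.21 in the control and of 11.50 and 11.81 in the GNA13-deficient libraries. PSMB9, which takes the place of PSMB6, had 10.70 and 10.83 against 10.32 and 10.58. PSMB10, which takes the place of PSMB7, had 11.37 and 11.48 against 11.17 and 11.36. In all 3 genes both control libraries lay above both others, as in 34.0% of all genes tested, though for PSMB10 the gap was narrow. The differences were -0.44 ± 0.13 for PSMB8, -0.31 ± 0.11 for PSMB9 and -0.16 ± 0.09 for PSMB10 (SE, limma adjusted p = 0.0628, 0.0911 and 0.225). Without GNA13-deficient replicate 1 the differences were -0.29, -0.18 and -0.068, and without GNA13-deficient replicate 2 they were -0.59, -0.45 and -0.26. By limma 0 of 3 were called, with 2 of 3 at an unadjusted p under 0.05. Over 11 alternative fits of all 4 libraries PSMB8 was called in 8, voom weights on the recovered reads among them, PSMB9 in 2 and PSMB10 in 1, and with the replicate block all 3 were called. The adjusted p ranged from 0.00216 to 0.294 for PSMB8, from 0.0122 to 0.565 for PSMB9 and from 0.0426 to 0.754 for PSMB10.

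Each immunoproteasome subunit was set against the constitutive subunit whose place it takes, since a ratio within a library does not depend on a constant factor per library. The log2 ratio of PSMB8 to PSMB5 was 0.14 and 0.09 in the control and -0.49 and -0.38 in the GNA13-deficient libraries. That of PSMB9 to PSMB6 was -0.89 and -0.98 against -1.48 and -1.37, and that of PSMB10 to PSMB7 was -0.67 and -0.70 against -1.01 and -0.93. The ratios were lower by 31.9%, 28.8% and 17.9%. Each difference (-0.55, -0.49 and -0.29 log2 units) was larger than the larger gap between replicates (0.11, 0.11 and 0.08), and the groups did not overlap. An exact two-sided permutation test gave p = 0.333 for each, the smallest that 2 libraries against 2 allow, so this design cannot reach 0.05 for a single ratio. A ratio shows unequal change and not which of its genes changed.

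**Figure D4:**
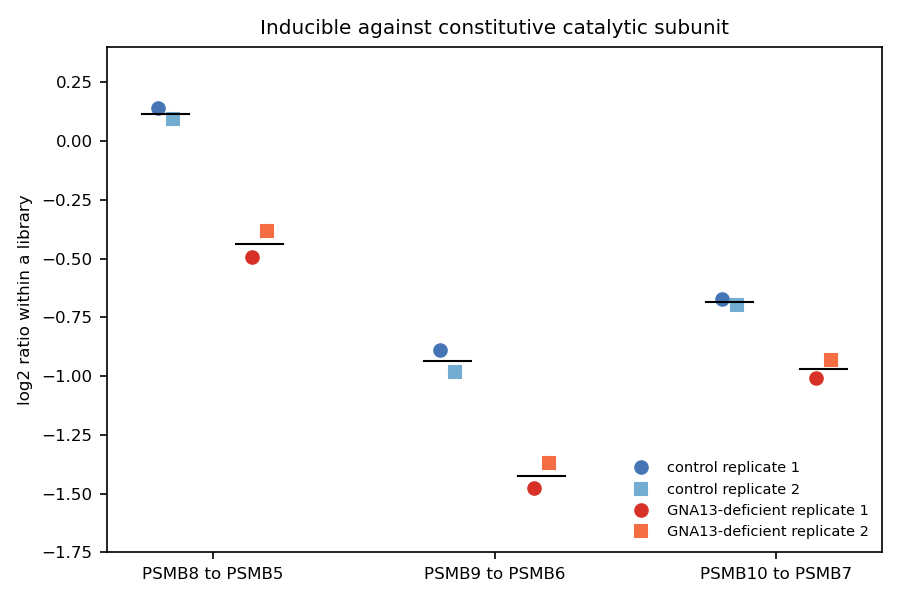
Log2 ratio of each immunoproteasome subunit to the constitutive subunit it replaces (y axis, log2 units), 1 point per library, with lines at the group means. For PSMB8 to PSMB5 the group means were 0.12 in the control and -0.44 in the GNA13-deficient libraries, and no ratio has overlapping groups.

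Per kilobase, mean PSMB8 was 3903 normalized reads in the control and 2887 in the GNA13-deficient libraries, beside 3882 and 4196 for PSMB5. Mean PSMB9 was 1712 and 1381 beside 4045 and 4561 for PSMB6, and mean PSMB10 was 2816 and 2521 beside 4493 and 4891 for PSMB7. In the control cells PSMB8 thus stood close to its constitutive partner while PSMB9 and PSMB10 stood below theirs. PSMB8 (chromosome 6, 32808494 to 32811824, minus strand, GRCh37) and PSMB9 (chromosome 6, 32821969 to 32827628, plus strand) lie in the MHC class II region with TAP1 and TAP2 beside them, whereas PSMB10 lies on chromosome 16 (67968409 to 67970753, minus strand).

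The regulatory particle held the most calls. Of its 17 genes 11 rose (64.7%), beside 13.1% of all genes tested, and 0 fell. In 15 both GNA13-deficient libraries lay above both control libraries, which held for 31.3% of all genes tested. With the limit at the median of the mean values 12 rose, beside 26.3% of the genes then tested. The median difference of the regulatory particle was 0.27 log2 units. It was 0.17 for the 14 constitutive core particle genes other than PSMA8, of which 5 rose (35.7%). Without GNA13-deficient replicate 2 the core particle median, with PSMA8, was 0.07. Whether the shares differ was not tested. Among the ATPases, which thread substrates into the core, 5 of 6 rose. PSMC1 had log2 values of 12.02 and 12.11 in the control and 12.37 and 12.45 in the other libraries, a difference of 0.35 ± 0.06 (SE, limma adjusted p = 0.0163). PSMC4 had 11.71 and 11.79 against 11.97 and 12.19, a difference of 0.33 ± 0.09 (adjusted p = 0.0488), and PSMC2 differed by 0.28 ± 0.06 (adjusted p = 0.0282) with 11.66 and 11.72 against 11.91 and 12.01. PSMC3 was the ATPase not called, with a difference of 0.14 ± 0.09 (adjusted p = 0.312). PSMC1 has 13 named pseudogenes, more than any other member, so its count is uncertain.

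Of the 11 subunits that are not ATPases 6 rose (54.5%), beside 13.1% of all genes tested. PSMD14, the deubiquitinase that cuts chains from substrates, had log2 values of 12.27 and 12.40 in the control and 12.81 and 12.90 in the other libraries, and was 1.43-fold higher (difference 0.52 ± 0.07, SE, limma adjusted p = 0.00733). PSMD1, a scaffold subunit of the base, had 12.60 and 12.57 against 13.02 and 13.04 (difference 0.45 ± 0.05, adjusted p = 0.00504). PSMD11, a lid subunit, had 11.69 and 11.70 against 12.14 and 12.14 (difference 0.45 ± 0.05, adjusted p = 0.00427). In these 3 genes the distance between groups was larger than either gap between replicates. PSMD13, another lid subunit, was the exception in direction at -0.05 (adjusted p = 0.714). PSMD1 and PSMD11 were also the 2 members still called without the variance trend.

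Promoters of the members were searched for short motifs, which were chosen after the values were seen. Promoters of 41 members were found in the RefSeq table (GRCh38.p14, 250 bases before to 50 after the start), and 40, all but PSMA8, were searched on both strands, beside 35116 promoters of genes of any type. The ETS core CCGGAAG was in 9 of 16 regulatory particle promoters (56.2%), in 0 of 10 constitutive core particle promoters, in 0 of 3 immunoproteasome promoters and in 10.3% of all promoters. The 9 are shown to let the shared letters and their surroundings be compared. Capitals mark the motif or its reverse complement, each sequence reads 5′ to 3′ on the gene's strand, and the number in each line is the first capital's distance in bases from the start.
PSMC1 (chr14:90256536-90256582, plus strand, 10): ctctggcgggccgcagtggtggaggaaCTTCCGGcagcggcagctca
PSMC2 (chr7:103347593-103347653, plus strand, -23): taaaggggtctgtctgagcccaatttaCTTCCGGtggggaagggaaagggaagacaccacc
PSMC6 (chr14:52707066-52707126, plus strand, -107): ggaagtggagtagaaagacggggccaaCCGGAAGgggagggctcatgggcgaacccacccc
PSMD6 (chr3:64023498-64023558, minus strand, -37): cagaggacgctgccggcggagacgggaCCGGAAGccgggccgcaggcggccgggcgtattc
PSMD7 (chr16:74296785-74296843, plus strand, -2): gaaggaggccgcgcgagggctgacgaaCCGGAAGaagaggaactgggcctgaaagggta
PSMD8 (chr19:38374527-38374587, plus strand, -17): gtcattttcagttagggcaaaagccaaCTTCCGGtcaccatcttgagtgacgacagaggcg
PSMD12 (chr17:67366552-67366612, minus strand, -8): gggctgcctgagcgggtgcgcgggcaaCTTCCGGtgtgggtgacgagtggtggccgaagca
PSMD13 (chr11:236937-236997, plus strand, -12): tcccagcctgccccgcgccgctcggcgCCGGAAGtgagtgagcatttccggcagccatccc
PSMD14 (chr2:161308394-161308454, plus strand, -4): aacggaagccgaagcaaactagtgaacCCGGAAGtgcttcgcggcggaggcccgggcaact
In 8 of the 9 the motif lies within 40 bases of the start. Of the 9 genes with the motif 5 rose, and of the 7 searched without it 5 rose. PSMD4, which also rose, had no promoter to search. Whether the motif goes with the call was not tested.

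Other motifs were more spread over the members. The antioxidant response element core TGACNNNGC was in 13 of 40 promoters (32.5%, against 13.3% of all), CCAAT in 18 (45.0% against 34.6%), GGGCGG in 27 (67.5% against 45.0%), the E-box CACGTG in 3 (7.5% against 7.26%) and the E2F site TTTGGCGC in 2, PSMD5 and PSMD9 (5.0% against 0.652%). Matches of different motifs may overlap. Among the 17 promoters searched of members that rose, 6 held the antioxidant element core, 8 CCAAT, 11 GGGCGG and 5 the ETS core. The E-box was in 1 of the 17 and the E2F site in 0. Among all 40 searched, the counts in the same order were 13, 18, 27, 12, 3 and 2. Whether any motif was more frequent among members that rose was not tested.

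A further motif, GAAA repeated after any pair of bases, is the core of the interferon-stimulated response element. It was in 6 of 40 member promoters (15.0%, against 3.57% of all), those of PSMA4, PSMB4, PSMB10, PSME1, PSME2 and PSMG4, and in 0 of 16 regulatory particle promoters. Of these 6 members 2 rose, PSMB4 and PSME2. The 3 members among them that are linked to antigen processing carry the same 10 letters, on one strand or the other, close to the start, as does PSMG4.
PSMB10 (chr16:67936835-67936898, minus strand, -21): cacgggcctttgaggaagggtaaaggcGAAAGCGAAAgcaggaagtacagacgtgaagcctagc
PSME1 (chr14:24136172-24136223, plus strand, 5): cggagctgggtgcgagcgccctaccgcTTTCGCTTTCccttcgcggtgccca
PSME2 (chr14:24146602-24146665, minus strand, -28): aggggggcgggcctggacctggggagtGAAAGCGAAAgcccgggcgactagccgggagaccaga
Of these 3 genes PSME2 rose, PSME1 was not called and PSMB10 was not called and lower in both libraries labelled GNA13-deficient, so a shared motif stood beside values in both directions.

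The activators dock on the core in place of the regulatory particle. PSME2, which with PSME1 forms an interferon-inducible ring, had log2 values of 12.79 and 12.94 in the control and 13.29 and 13.47 in the other libraries, and was 1.43-fold higher (difference 0.51 ± 0.09, SE, limma adjusted p = 0.0160). PSME1 had 12.97 and 13.02 against 13.10 and 13.21, a difference of 0.16 that was not called (adjusted p = 0.133). The log2 ratio of PSME2 to PSME1, chosen after the values were seen, was -0.18 and -0.08 in the control and 0.19 and 0.26 in the GNA13-deficient libraries. The 2 genes lie 4402 bases apart on chromosome 14 (PSME1 24605403 to 24608171, plus strand, and PSME2 24612574 to 24615819, minus strand, GRCh37), and PSME2 has 6 named pseudogenes, which leaves its count uncertain. PSME3, a nuclear activator, had 13.37 and 13.44 against 13.63 and 13.68 and rose by 0.25 ± 0.06 (adjusted p = 0.0367). PSME4, which works in histone degradation, had 12.36 and 12.34 against 12.44 and 12.32 with overlapping groups (adjusted p = 0.747). The inhibitor PSMF1 was not called (0.10 ± 0.06, adjusted p = 0.239).

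Assembly chaperones guide subunits into place and leave. Of the 7, PSMG1, which helps the α ring form, rose, and PSMD5, which holds ATPases before the base is joined, fell. Each is 14.3% of the list, beside 13.1% of all genes tested called higher and 16.6% called lower. PSMG1 had log2 values of 10.86 and 10.91 in the control and 11.23 and 11.41 in the other libraries, a difference of 0.43 ± 0.08 (SE, limma adjusted p = 0.0157). PSMD5 had 10.42 and 10.42 against 10.15 and 10.11, a difference of -0.29 ± 0.06 (adjusted p = 0.02), and its call was lost when libraries were centred on their medians. PSMD9 and PSMD10, which like PSMD5 bind ATPases, were not called, with differences of 0.17 and 0.05. PSMG2, the partner of PSMG1, differed by 0.20 (adjusted p = 0.0573).

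Genes that work with the proteasome but are not members were taken from a list. Of 22 such factors 8 rose (36.4%), 2 fell (9.09%) and the median difference was 0.12. Of all genes tested 13.1% were called higher and 16.6% lower, and 26.3% higher with the limit at the median of the mean values. AKIRIN2, which carries proteasomes into the nucleus, had log2 values of 10.76 and 10.78 in the control and 10.03 and 10.09 in the other libraries (difference -0.71, limma adjusted p = 0.0022). POMP, the maturation factor of the β ring, had 12.05 and 12.20 against 12.45 and 12.72 (difference 0.46, adjusted p = 0.0366). USP14, a deubiquitinase of the regulatory particle, had 12.15 and 12.17 against 12.58 and 12.62 (difference 0.44, adjusted p = 0.00513). The 2 factors that fell were AKIRIN2 and NGLY1 (-0.25, adjusted p = 0.0218). NFE2L1, which encodes the transcription factor known to induce proteasome genes when proteasome activity is short, was not called (-0.02, adjusted p = 0.828). This is its mRNA, and its protein was not measured here. Of 5 tested genes of ubiquitin supply 1 rose, the E1 enzyme UBA1 (0.36, adjusted p = 0.0199), and UBB was listed at 0 in all 4 libraries.

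Of 10 genes of peptide loading and the interferon gamma response, 0 rose and 4 fell, with a median difference of -0.16. TAP2, a subunit of the peptide transporter, had log2 values of 11.71 and 11.72 in the control and 11.10 and 11.11 in the other libraries (difference -0.61, limma adjusted p = 0.00222). TAPBP, which holds MHC class I at the transporter, had 11.67 and 11.80 against 11.26 and 11.24 (-0.49, adjusted p = 0.00701), and ERAP1, a peptide trimmer, had 11.69 and 11.77 against 11.43 and 11.33 (-0.35, adjusted p = 0.0159). TAP1, the other transporter gene, differed by -0.31 (adjusted p = 0.0257). TAP1 starts 488 bases from PSMB9 on the opposite strand, and the log2 ratio of PSMB9 to TAP1, chosen after the values were seen, differed by -0.005 between groups, which overlapped. IRF1, an interferon regulatory factor, and NLRC5, which drives MHC class I genes, were not called, at 0.05 and -0.06.

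The scaling of the libraries set how far these differences lay from 0. As deposited, the median of the regulatory particle lay 0.30 log2 units above the median of all genes, that of the constitutive core particle 0.19 above, and that of the immunoproteasome subunits 0.29 below. After quantile normalization these distances were 0.11 and 0.05 above and 0.39 below. Centring each library on its median shifted all differences by about the same amount, with the median of all genes at 0.18, and left the distances at 0.30, 0.19 and -0.29. Under centring 32 of 47 members were called higher, beside 25.4% of all genes tested, and 0 lower. Of all calls 69.1% were then higher instead of 44.03%. The median of the 4 activators lay 0.23 above that of all genes as deposited and -0.004 from it after quantile normalization, and over all members the distance went from 0.21 to 0.06, with 28 of 47 above. As deposited and after quantile normalization the core and regulatory particle medians lay above the median of all genes, and the immunoproteasome median below it. Centring subtracts a constant from each library, so it could not change this order and adds nothing to it.

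**Figure D5:**
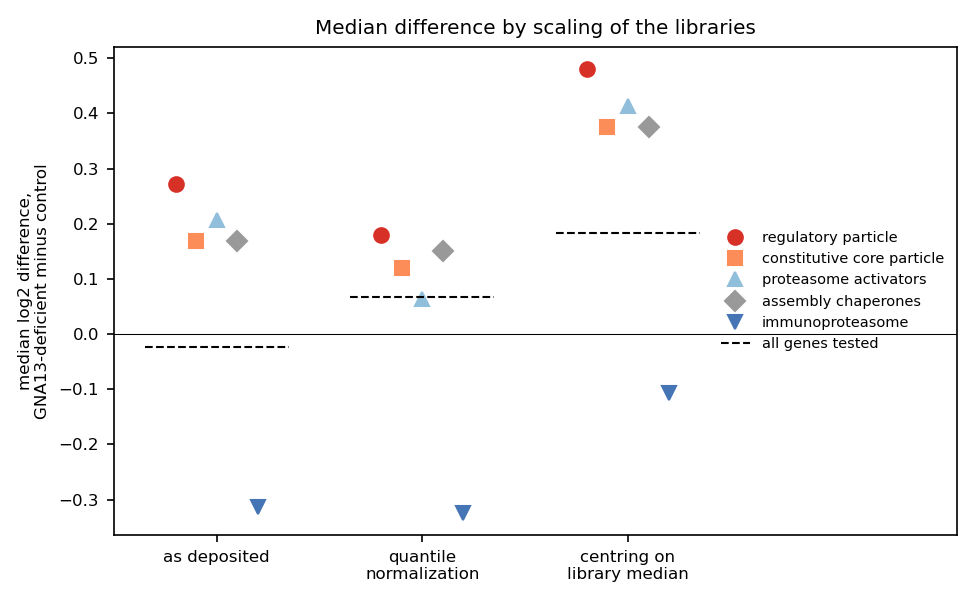
Median log2 difference of each group of proteasome genes under 3 scalings of the libraries (values as deposited, quantile normalization, centring on the library median), (symbols, y axis), with dashed lines at the median of all genes tested. The immunoproteasome median is below that of all genes and the regulatory particle median above it, at distances of -0.29 and 0.30 as deposited. Centring cannot change these distances, and quantile normalization can. The activator median meets that of all genes after quantile normalization.

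Libraries of the same group were not identical for these genes. Control replicate 2 lay above control replicate 1 in 42 of 47 members, by a median of 0.10 log2 units, and GNA13-deficient replicate 2 lay above replicate 1 in 42 of 47, by 0.14, whereas the median of all genes differed by -0.02 and 0.00. The median difference between genotypes over all members, 0.19, was near the size of this gap, whereas the groups of PSMA6, PSMA7, PSMB2 and PSMD14 lay farther apart than either pair of replicates.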

How the data were processed

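Libraries were stranded poly(A) libraries. Reads were aligned by the authors with STAR on hg19, and the processing notes per the labels name HTSeq. The authors deposited normalized log2 values. The method of normalization, the annotation and the strand setting of the counting are not given in the sources used here. Values up to 400 reads came out as whole reads in 100% of cases, after division by a constant per library, within a tolerance of at least 0.02 reads, so a gene listed at 0 had no read, or in control replicate 2 at most 1. A deposited row of library totals was used only for depth.

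The deposited log2 values were tested with limma 3.58.1 in R 4.3.3 (lmFit, then eBayes with trend), fitting genotype alone with 2 residual degrees of freedom, and Benjamini-Hochberg adjustment over 16945 genes above 0 in at least 2 libraries (threshold 0.05). The procedure was tested on simulated data. Since the values are deposited on the log2 scale no count model was run, and voom weights on the recovered reads were an alternative. Ratios were tested by exact permutation with scipy 1.17.1. Positions and lengths are from GENCODE 44 on GRCh37, and promoters from RefSeq on GRCh38.p14. No promoter was found for PSMA7, PSMB1, PSMB6, PSMB7, PSMD4 and PSMG3. An opposite-strand gene overlaps 16 members, and 17 members have 44 named pseudogenes, so their counts are uncertain.

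Members and lists were chosen with earlier results of these data known. Values in every library were given for PSMB5 to PSMB10, PSME1 to PSME4, GNA13 and the 3 largest called differences of each list. Other genes were named after their values were seen, and 1 listed gene is not reported here.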

Additional observations from a re-analysis of the deposited data

How the results depend on the processing

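With 2 libraries a group and 2 residual degrees of freedom, counts of calls moved with the settings. Against 5037 genes and 20 members called (19 higher, 1 lower), no limit on low values called 1999 genes and 4 members (3 higher), no variance trend called 2718 genes and 2 members (2 higher, 0 lower), and centring called 32 members (32 higher, 0 lower). Leaving out any 1 library left 1 degree of freedom, with the lone library assumed to vary like the other group. All 20 called members then kept their direction, which their non-overlapping groups fixed in advance. Members called lower were 3 with a limit at the median level and 2 with a pseudocount of 1 or 10, quantile normalization, a robust prior, voom weights or a limit of 2 reads. With the replicate block 31 members were called (4 lower: PSMB8, PSMB9, PSMB10 and PSMD5), beside 6616 of 16945 genes. Same-numbered libraries deviated together (r = 0.4529 over 8473 genes), but no source used here pairs them. Swapping the replicate numbers within a group would reverse the sign of r, so r cannot show that the libraries are paired. Median differences under centring were 0.38 for the constitutive core particle, 0.48 for the regulatory particle, -0.11 for the immunoproteasome subunits, 0.41 for the activators and 0.38 for the chaperones, and under quantile normalization 0.18 for the regulatory particle and 0.064 for the activators. With 1 library left out the core particle median ranged from 0.066 (without GNA13-deficient replicate 2) to 0.26, and the immunoproteasome median from -0.45 (without GNA13-deficient replicate 2) to -0.18 (without GNA13-deficient replicate 1). Genes that were not called changed sign: under centring PSMA1 (0.21), PSMA2 (0.13), PSMB10 (0.046), PSMD13 (0.16), PSMG3 (0.14), NFE2L1 (0.19) and NLRC5 (0.15), and under quantile normalization PSMA4 (-0.017), PSME4 (-0.047) and PSMG3 (0.001). With 1 library left out, differences ranged from -0.093 to 0.085 for PSMA1, -0.015 to 0.35 for PSMB3, -0.018 to 0.25 for PSMB5, -0.065 to 0.16 for PSMD10, -0.14 to 0.042 for PSMD13, -0.029 to 0.092 for PSME4, -0.15 to 0.018 for PSMG3, -0.059 to 0.018 for NFE2L1 and -0.14 to 0.017 for NLRC5. The cause was not tested. The 3 planned ratios kept their direction in every alternative computed for them. Centring and the replicate block cannot change the difference of a ratio, and non-overlapping groups fix its direction when a library is left out. Only the pseudocounts and quantile normalization could have changed it.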

Other observations

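In the annotation 8 members have a gene that starts within 1000 bases of them on the opposite strand and runs the other way. PSMA7 rose by 0.57 log2 units while SS18L1, which starts 375 bases away, differed by -0.27 (not called), and PSME2 rose by 0.51 while RNF31 differed by -0.09 (not called). PSMB9 and TAP1 differed by -0.31 each.

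Members have short transcripts, with 23 of them up to 1.5 kb. Among 918 genes of all kinds up to that length, taken from the upper part of the range of levels, the median gap between replicates was 0.12 in the control and 0.14 in the libraries labelled GNA13-deficient, and the median difference between genotypes was 0.11, beside 0.16 for the 23 members. Above 3 kb the median difference was 0.00 over 4150 genes and 0.26 over 11 members. Lengths were found for 84.7% of these genes. The part of transcript length in the members' differences was not tested.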
